A study of Rattus norvegicus with 20 samples.

Results

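The small intestine library is a single small RNA library made from the pooled miRNA of 3 rats, and it is 1 of the 20 libraries of the series. The library was taken by its tissue label. All 20 libraries came from male Long Evans rats aged 35 postnatal days that had received no treatment, and the labels name no transgene or deletion in any group. The other 19 libraries comprised 13 further pools, 3 brain hemispheres sequenced singly and 3 serum libraries. The 13 other pools were fat, heart, kidney, large intestine, liver, lung, muscle, pancreas, skin, spleen, stomach, testes and thymus, each from 3 rats. The study profiled these tissues to look for the possible sources of circulating miRNAs. Here the small intestine was set against 14 other tissues, namely the 13 pools and the mean of the 3 brain libraries, and serum was left out. Each pool is 1 library, so no difference below has a replicate check, and a pool does not show how rats differ from each other.

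MicroRNAs are short RNAs cut from hairpin transcripts that lower the output of messenger RNAs matching their seed, bases 2 to 8 of the mature strand. In the gut wall, miR-192, miR-194 and miR-215 are known from the epithelium that lines the lumen, miR-143 and miR-145 from the smooth muscle and connective tissue around it, and the miR-200 family from epithelia in general. A homogenized organ mixes these layers, so fewer cells of a type and less RNA per cell cannot be told apart.

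The miRNAs that took most of the small intestine's reads are shown first, because their sequences decide which names can share reads. They are RefSeq mature strands (GRCr8), with the seed in capitals.
miR-215: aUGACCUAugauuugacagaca
miR-192-5p: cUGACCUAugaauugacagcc
miR-194-5p: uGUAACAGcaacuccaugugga
miR-143-3p: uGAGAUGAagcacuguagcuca

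miR-215 and miR-192-5p carry the same seed, UGACCUA, and were identical at 18 of 21 compared bases. Counted from 1 at the 5′ end, and with the base of miR-192-5p first, the differences were C1A, A12U and C20A. Their genes sit in a pair of matching arrangements, each beside a copy of the Mir194 hairpin on the same strand. Mir194-1 (chr13:99382716-99382798, plus strand) lay 191 bases before Mir215 (chr13:99382990-99383086), both inside the span of Iars2, which encodes a mitochondrial isoleucyl-tRNA synthetase. Mir194-2 (chr1:212994024-212994108, plus strand) lay 100 bases before Mir192 (chr1:212994209-212994318), in the interval between Atg2a and Ehd1. The hairpins of the Mir194 copies are given because both hold the same 5p strand, here in capitals.
Mir194-1: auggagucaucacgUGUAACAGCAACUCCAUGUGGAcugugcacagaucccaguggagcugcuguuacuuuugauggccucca
Mir194-2: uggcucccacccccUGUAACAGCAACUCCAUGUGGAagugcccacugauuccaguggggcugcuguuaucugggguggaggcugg

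The mature strand is identical, so the division of reads between Mir194-1 and Mir194-2 is uncertain, while their sum is not affected by it.

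The small intestine library held 906313 reads on 388 RefSeq miRNAs, against 157243 to 3774010 in the other 16 tissue libraries. Levels are given as RPM, a miRNA's reads scaled to the RefSeq reads of its own library, so that 10000 RPM equals 1% of them. At this depth 3 reads, used as the limit that a count of 0 allows, came to 3.31 RPM. Of the 388 miRNAs, 244 had at least 1 read in the small intestine and 145 had at least 10. Wilson 95% intervals are quoted for single levels, and they and the floors cover counting error only. The library labelled pancreas went against its label before any result is read from it. It held 16948 RPM of Mir122, the hepatocyte miRNA, where liver held 16735 RPM and no further tissue more than 8.82 RPM. Of the acinar miRNAs of the pancreas it held no read of Mir217 or Mir216a and 5.65 RPM of Mir216b.

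Mir215 alone took 456246 of the 906313 reads, or 50.3% (50.2% to 50.4%), which is 503409 RPM. In the other 14 tissues it ranged from 6.76 RPM in brain (SD 3.36, n = 3) to 54326 RPM in large intestine, with a median of 91.8 RPM. Kidney followed large intestine at 2182 RPM, and then heart at 385 RPM, fat at 310.5 RPM, stomach at 135 RPM, muscle at 97.9 RPM, testes at 95.4 RPM, thymus at 88.1 RPM and skin at 80.1 RPM. Liver held 79.7 RPM, the library labelled pancreas 79.1 RPM, spleen 24.4 RPM and lung 24.1 RPM. The small intestine level was 9.27 times that of large intestine and 3738 times that of stomach, and every other tissue lay below it.

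Mir192, the hepatic, renal and intestinal relative with the same seed, was the second miRNA of the library, with 151882 reads and 167582 RPM (166815 to 168353). Here the small intestine did not stand apart by RPM. Liver at 259909 RPM, the library labelled pancreas at 264580 RPM and large intestine at 198125 RPM were above it, and kidney at 124139 RPM was below it. Stomach held 13530 RPM and the remaining 9 tissues 1240 RPM in muscle to 3649 RPM in brain. On the log2(RPM + 1) scale the small intestine was 5.75 above the median of the other tissues for Mir192 and 12.4 above it for Mir215. When Mir215 was taken out of every library's total, the small intestine ranked first of 15 for Mir192 instead of 4th. With TMM and with DESeq2 size factors, scalings described below, it ranked first as well.

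The balance of the seed-sharing pair therefore differed from that of every other tissue. The small intestine held 3.00 Mir215 reads for each Mir192 read, against 0.274 in large intestine and a median of 0.0173 over the other tissue libraries. The lowest ratio was 0.000299 in the library labelled pancreas, and liver, with a similar Mir192 level, held 79.7 RPM of Mir215. Together Mir215 and Mir192 made up 67.1% of the small intestine's RefSeq reads.

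The Mir194 copies, which lie beside Mir215 and Mir192, were each above every other tissue. Mir194-1 had 6749 reads and 7447 RPM (7272 to 7626), against 2732 RPM in large intestine, 2311 RPM in liver, 911 RPM in kidney and a median of 32.2 RPM. Mir194-2 had 5494 reads and 6062 RPM (5904 to 6224), against 2905 RPM in large intestine, 2772 RPM in liver and a median of 47.9 RPM. On the log2 scale these were 7.83 and 7.01 above the medians. The excess over large intestine was 2.73 times for Mir194-1 and 2.09 times for Mir194-2, smaller than the excess of Mir215. Of the reads on both copies, 55.1% were assigned to Mir194-1 in the small intestine, against 42.5% to 48.5% in the 6 other tissue libraries with at least 100 such reads.

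The mature list counted fewer of these reads in the small intestine than elsewhere. It held 6204 reads of miR-194-5p and 4 of miR-194-3p, and miR-194-5p equalled 50.7% of the 12243 reads on the 2 hairpins. In the 6 other libraries with at least 100 hairpin reads this share ran from 78.6% in large intestine to 91.3%. For Mir192 the corresponding share was 76.8%, inside the range of 66.6% to 87.7% in the other libraries. The mature and precursor lists do not contain Mir215, so no such share could be given for it.

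**Figure D1:**
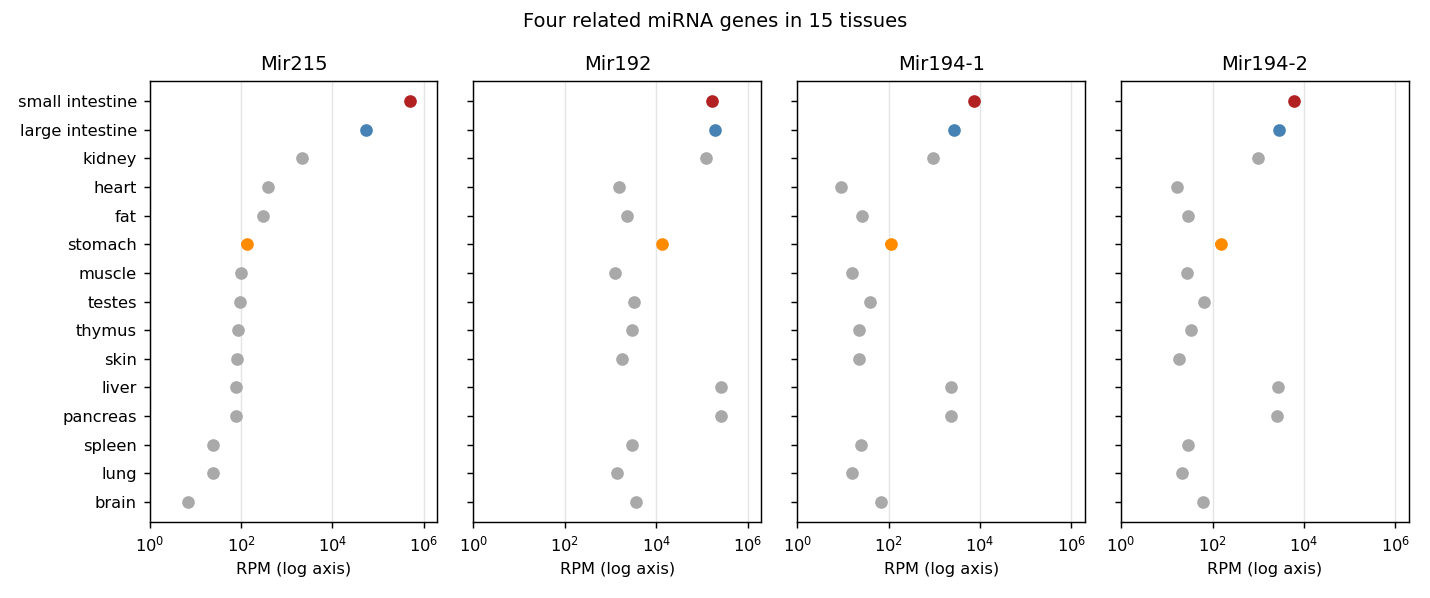
Level of Mir215, Mir192, Mir194-1 and Mir194-2 (RPM, log axis) in 15 tissues, ordered by Mir215; each point is 1 library, brain is the mean of 3, and the Wilson intervals drawn for the 3 gut pools are mostly narrower than the points. The small intestine (red) is alone at the right for Mir215, at 503409 RPM. By RPM it lies among large intestine, kidney, liver and the library labelled pancreas for Mir192.

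The third miRNA was Mir143, with 144170 reads and 159073 RPM (158321 to 159827). For this smooth muscle miRNA the median of the other tissues was 133366 RPM. The difference was 0.25 on the log2 scale by RPM and 1.26 with the total without Mir215, but 2.40 with TMM and 2.23 with DESeq2 size factors, so that Mir143 was at least 4-fold higher under those 2 scalings. It was 310015 RPM in large intestine and 641549 RPM in stomach, so the small intestine had the lowest Mir143 level of the 3 gut pools by RPM. Its cluster partner Mir145 had 446 reads and 492 RPM, between large intestine at 787 RPM and the other tissues' median of 283 RPM. The ratio of Mir143 to Mir145 reads was 323, inside the range of 233 to 1532 in the other libraries.

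These 3 miRNAs made up 83.0% of the library and the 10 most read miRNAs 91.7%. No other tissue was as concentrated: the 3 leading miRNAs held 73.0% in stomach, 60.4% in large intestine and 25.9% in brain. The next places were taken by Mir10a, a Hox cluster miRNA, with 24789 reads and 27352 RPM, and by let-7f-1 with 12487 RPM. Mir22, Mir27b, Mir21 and Mir10b followed at 12091, 9808, 9624 and 7875 RPM. Each of these 6 was below the median of the other tissues by RPM, by 0.27 for Mir10a to 2.67 for let-7f-1 on the log2 scale. Mir10a and Mir21 moved above their medians under the other 3 scalings described next, Mir22 did so under TMM and DESeq2 size factors, and let-7f-1, Mir27b and Mir10b stayed below.

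**Figure D2:**
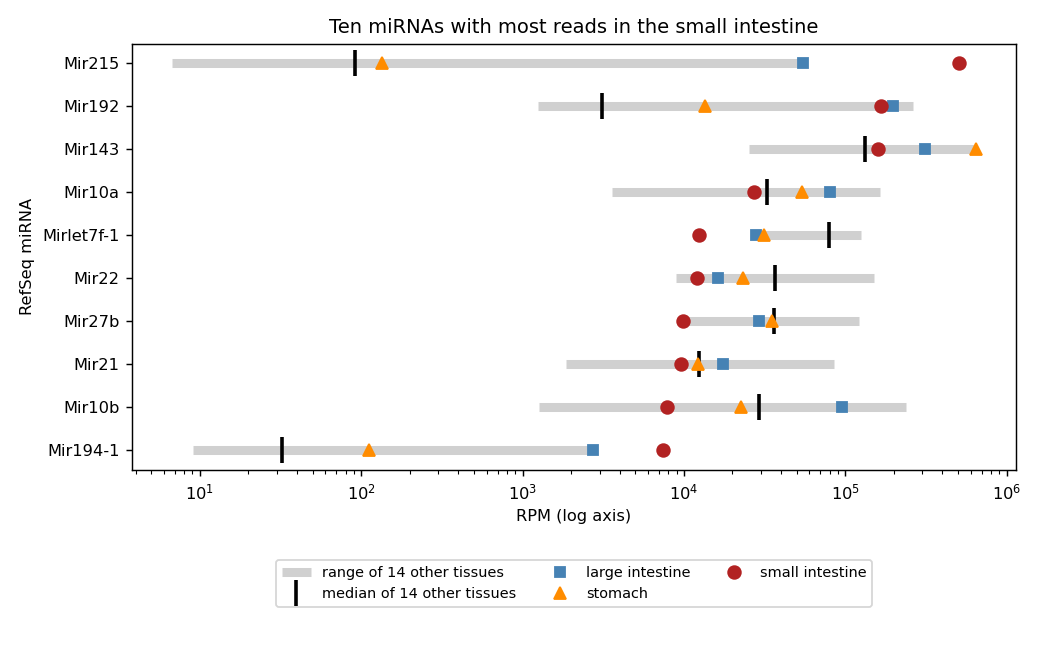
The 10 miRNAs with most reads in the small intestine (red points, RPM, log axis) beside large intestine (squares), stomach (triangles), the median (black tick) and the range (grey bar) of the 14 other tissues; the Wilson intervals are narrower than the points. Mir215 and Mir194-1 lie to the right of the grey bar, whereas let-7f-1 and Mir27b lie to its left.

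Where 1 miRNA holds 50.3% of a library's reads, the RPM of all the others is lower by construction. Differences were therefore also computed with 3 other scalings: the total without Mir215, TMM factors from edgeR, and size factors from DESeq2. Among the 265 miRNAs with at least 10 reads in at least 3 tissue libraries, the median log2 difference between the small intestine and the median of the other tissues was -1.33 by RPM. It was -0.46 with the total without Mir215, 0.03 with TMM and 0.00 with DESeq2 size factors. By RPM, 12 of the 265 (4.53%) were at least 4-fold above the median of the other tissues and 71 (26.8%) at least 4-fold below it. With TMM, 40 (15.1%) were above and 14 (5.28%) below, with DESeq2 size factors 37 and 17, and with the total without Mir215 23 and 25. Of the 265, 22 reached 10 reads in no pool and met the filter through the 3 brain libraries alone. They remain in the shares of all tested miRNAs. Leaving out the library labelled pancreas gave 11 higher and 81 lower by RPM. The split between higher and lower miRNAs is thus set by the scaling, and lower levels by RPM are described below with the other values beside them.

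**Figure D3:**
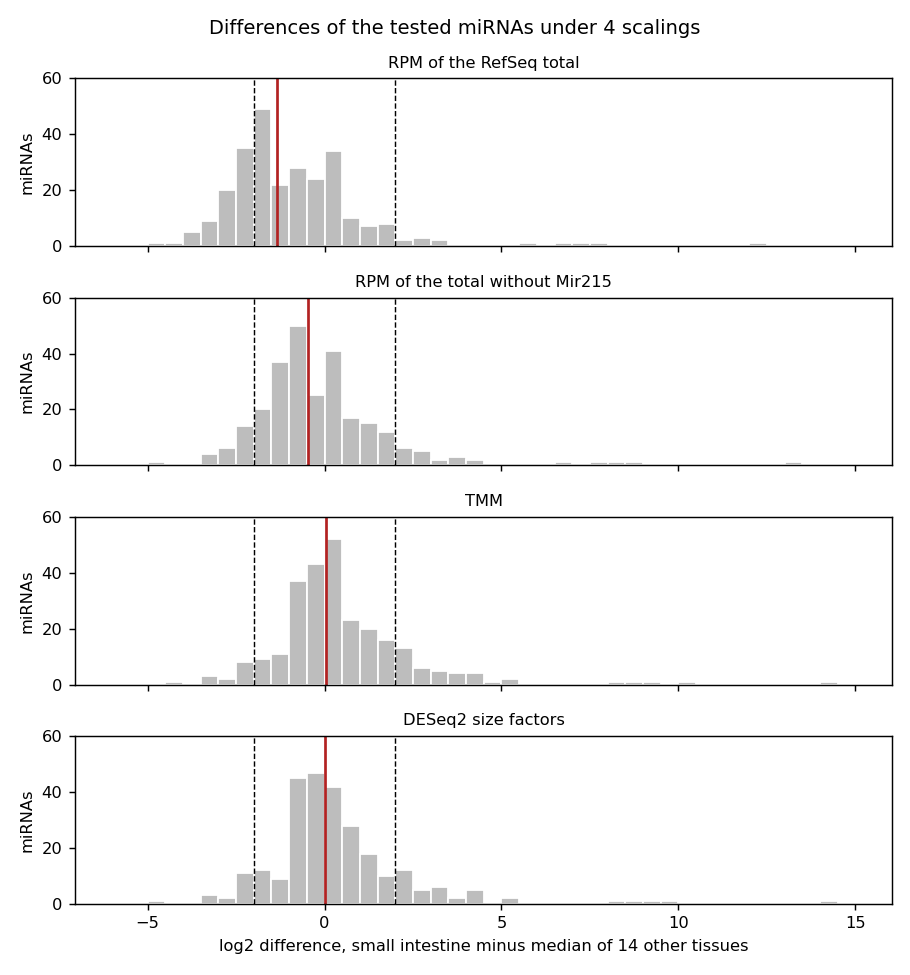
Number of miRNAs by log2 difference between the small intestine and the median of the 14 other tissues, for 265 miRNAs under 4 scalings; the red line is the median of all 265 and dashed lines mark 4-fold. The bulk lies at -1.33 by RPM and at 0.03 with TMM, while Mir215 stays at the far right in each panel.

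The 12 miRNAs higher by RPM were at least 4-fold higher under the other 3 scalings too, so that all 4 shared 12 (4.53%). They were Mir215, Mir192, Mir194-1, Mir194-2, Mir802, Mir217, Mir323, Mir200c, Mir375, Mir490, Mir147 and Mir31. With a pseudocount of 10 RPM the count of higher miRNAs by RPM was 7, and Mir323 rests on 5 reads. Another 12 (4.53%) had log2 differences of -2 or below under all 4, namely Mir144, Mir187, Mir196b, Mir298, Mir329, Mir331, Mir350, Mir351, Mir376b, Mir376c, Mir499 and Mir540. Of these lower miRNAs only Mir351 had at least 10 reads in the small intestine, and 8 had 0 reads. Against the 3-read floor the median of the other tissues was at least 11.8-fold higher for Mir196b, but the bound was 2.89-fold for Mir187, 2.47-fold for Mir376b and 1.14-fold to 1.45-fold for Mir329, Mir331, Mir350, Mir376c and Mir540. For these 7 the depth cannot show a 4-fold difference, and their place in the count rests on the pseudocount. Mir144 and Mir499 rest on 1 read each and Mir298 on 3. By RPM, 4 miRNAs (1.51%) were above every other tissue, namely Mir215, Mir194-1, Mir194-2 and Mir200c, and all 4 stayed above every other tissue under each scaling. Below every other tissue were 69 (26%) by RPM, but 2 with TMM, 6 with DESeq2 size factors and 18 with the total without Mir215.

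**Figure D4:**
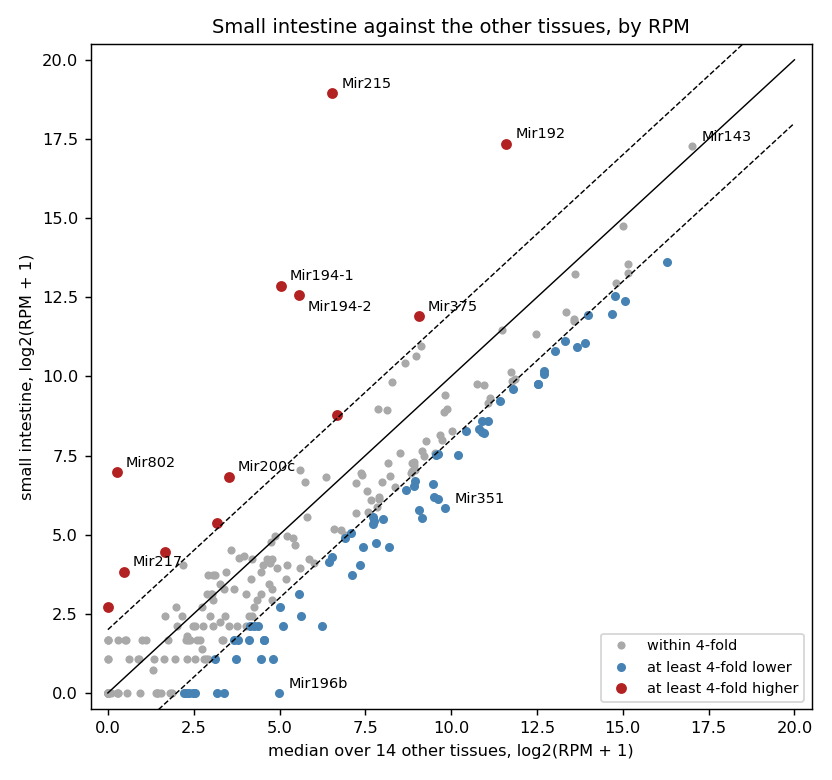
Level in the small intestine against the median over the 14 other tissues, both as log2(RPM + 1), for 265 miRNAs; the solid line marks equal levels and the dashed lines 4-fold. The 12 higher miRNAs lie above the upper line, with Mir215 12.4 log2 units above the solid line, and most others lie below it, Mir143 being close to it.

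Mir802, a miRNA known from liver, pancreas and intestine, had 113 reads and 124.7 RPM (104 to 150). It was 1157 RPM in liver, 1165 RPM in the library labelled pancreas, 40.2 RPM in kidney, 10.9 RPM in large intestine and at most 1.83 RPM in the other 10 tissues, with no read in stomach. The small intestine was the third highest of 15 tissues. Of its 113 hairpin reads, 54 were counted as a mature strand, 6 as the 5p and 48 as the 3p strand.

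Mir375, known from endocrine cells of pancreas and gut and from secretory epithelium, had 3448 reads and 3804 RPM (3680 to 3933). It was 17900 RPM in large intestine, 11822 RPM in lung, 4453 RPM in stomach and 4255 RPM in testes, and the median was 531 RPM. The small intestine was 5th of 15 by RPM, 2nd with TMM and 3rd with the total without Mir215. Over the 9 tested miRNAs of secretory and other epithelia, 4 were at least 4-fold higher by RPM, against 4.53% of all tested miRNAs. These were Mir375, Mir802, Mir147 and Mir31, and 0 were lower. The median difference was 1.16, positive under every scaling. Besides the 4 named above, the list held Mir182, Mir183, Mir96, Mir7a-1, Mir7a-2 and Mir7b. In the precursor list, which lacks Mir215, their log2 differences were 1.05, 1.44, -0.85, 0.17, 1.87 and 0 in that order. The 10 listed miRNAs summed to 7278 RPM, 6th of 15, below large intestine at 27488 RPM, stomach at 13471 RPM and brain at 44138 RPM. In the precursor list mir-182 alone was at 41799 RPM in brain. Against large intestine alone, the median difference of the tested members was -1.16 by RPM.

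Mir31, expressed in skin and gut epithelium, had 396 reads and 437 RPM (396 to 482), against 2731 RPM in skin, 1117 RPM in liver, 385 RPM in stomach and 81.7 RPM in large intestine. Its hairpin overlaps Mir3554 on the other strand, which held 2.07 reads.

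Mir147, a miRNA induced in activated macrophages, had 36.3 reads and 40.0 RPM, below the 120 RPM of large intestine and the 58.5 RPM of spleen. Mir490, which lies in an intron of the muscarinic receptor gene Chrm2, had 19 reads and 20.96 RPM, below heart at 621 RPM, stomach at 170.3 RPM, brain at 124 RPM and large intestine at 43.2 RPM. Mir217 and Mir323 rest on 12 and 5 reads. In the precursor list Mir323 had a median of 0 RPM in the other tissues and 189 RPM in brain. Its fold over the median therefore rests on the pseudocount. Mir217, an acinar miRNA of the pancreas, was at 13.2 RPM (7.57 to 23.1) beside 37.2 RPM in brain, 9.75 RPM in spleen and 0 reads in large intestine. Mir216a, its acinar partner, had 5 reads.

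The miR-200 family keeps epithelial cells from taking on a mesenchymal state by repressing Zeb1 and Zeb2. All 5 listed members were detected, at 2003 RPM for Mir200b, 1362 RPM for Mir141, 905 RPM for Mir429, 495 RPM for Mir200a and 113 RPM for Mir200c. Their median log2 difference was 1.76 by RPM, beside -1.33 over all 265 miRNAs, and it was positive under every scaling. Of the 5, 1 was at least 4-fold higher by RPM, and 5 of 5 were under each of the other scalings. Mir200c at 113 RPM (92.7 to 137) could not be separated from large intestine at 111 RPM (101 to 122), although it was nominally the highest of 15. The Mir200c hairpin overlaps Mir3575 on the other strand, at 0 reads here, and only 6 of its 102 reads were counted as mature miR-200c-3p. The other 4 members were higher in large intestine, at 4516 RPM for Mir200b, 5085 RPM for Mir141, 3193 RPM for Mir429 and 2166 RPM for Mir200a. The family summed to 4877 RPM in the small intestine, 15071 RPM in large intestine and 6341 RPM in stomach.

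Among miRNAs of stratified epithelium, Mir203 had 1442 reads and 1591 RPM, beside 1641 RPM in large intestine, 3562 RPM in stomach and 42631 RPM in skin. Mir205, which marks basal layers of such epithelia, had 16 reads and 17.7 RPM, below large intestine at 149 RPM and stomach at 1046 RPM.

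Large intestine was the tissue most like the small intestine over the 265 miRNAs, with a Pearson correlation of log2(RPM + 1) across miRNAs of 0.958, followed by stomach at 0.906, liver at 0.884 and kidney at 0.884. Brain was least like it at 0.573. These values describe 1 library per pool and share the abundant miRNAs, and miRNAs are not replicates. Against large intestine, 5 miRNAs (1.89%) were at least 4-fold higher in the small intestine by RPM, namely Mir215, Mir802, Mir31, Mir217 and Mir323, and 15 (5.66%) were at least 4-fold lower. Of the 15, Mir196b, Mir540, Mir376b and Mir196a had 0 reads. Against the floor large intestine was at least 1.52-fold, 1.20-fold and 1.12-fold higher for Mir540, Mir376b and Mir196a. Mir196b is described in the next paragraph. The median over all 265 was -0.61. Against stomach, 13 (4.91%) were higher and 48 (18.1%) lower, with a median of -0.95.

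Mir196b, which lies in a Hox cluster, was not detected. It had 0 reads in the small intestine, beside 5475 reads and 1451 RPM in large intestine (1413 to 1490), so large intestine was at least 438-fold higher against the 3-read floor. In stomach it was 1.32 RPM, and the median of the other tissues was 39.1 RPM. Its relatives Mir196a and Mir196c were also at 0 reads, beside 3.71 and 365 RPM in large intestine, and Mir615 was at 0 reads here and in large intestine.

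The Hox cluster miRNAs of the miR-10 family were abundant in both parts of the intestine but at different levels. Mir10b had 7875 RPM (7695 to 8059) in the small intestine and 95824 RPM in large intestine, a 12.2-fold difference that stayed at least 4-fold under TMM. These are hairpin levels: beside 7137 hairpin reads here, only 42 were counted as mature miR-10b-5p. In the mature list that was 112 RPM in the small intestine and 652 RPM in large intestine. Mir10a was 27352 RPM here and 80462 RPM in large intestine. Over the 5 tested Hox cluster miRNAs the median difference from the other tissues was -1.80 by RPM and negative under every scaling, with 1 of 5 at least 4-fold lower by RPM, a share near the 26.8% of all tested miRNAs.

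The other miRNAs lower than in large intestine by the same measure included Mir204 at 67.3 against 753 RPM, Mir222 at 12.1 against 84.8 RPM and Mir375 at 3804 against 17900 RPM. For Mir375 the difference fell within 4-fold under TMM.

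The let-7 family, which rises as tissues differentiate, was the lowest of all 15 tissues in sum, at 24289 RPM against 58983 RPM in large intestine and 240601 RPM in spleen. By RPM, 9 of its 11 listed members were at least 4-fold lower, against 26.8% of all tested miRNAs, and the median difference was -2.62. With each of the other scalings, however, 0 of 11 were. The medians of the family were then -1.61 without Mir215, -0.80 with TMM and -0.91 with DESeq2 size factors. Its sum was still lowest of 15 with the total without Mir215 and 13th with TMM and with DESeq2 size factors. let-7f-1 had 12487 RPM (12261 to 12718) against a median of 79538 RPM, and let-7i had 4027 RPM against 26509 RPM. Mir98, a member with the same seed, had 501 RPM against 951 RPM and was above its median under the other scalings. The hairpin of let-7d overlaps Mir3596b on the other strand, and the 75.7 reads listed for let-7d and 347 for Mir3596b cannot be told apart. The family sum leaves out the reads of Mir3596b. It also leaves out let-7g, absent from the RefSeq list, which had 945 precursor reads.

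The mir-30 family behaved likewise, with a sum of 11727 RPM against 18517 RPM in large intestine and 136262 RPM in heart. Its median difference was -2.05 by RPM with 3 of 5 members at least 4-fold lower, beside -1.33 and 26.8% over all tested miRNAs, and -0.04 with TMM with 0 of 5. The mir-29 family, known for repressing collagen genes, had a median of -1.85 by RPM and -0.10 with TMM. The mir-99, mir-100 and mir-125 families had a median of -2.14 by RPM and -0.59 with TMM, with 3 of 6 lower by RPM and 0 of 6 with TMM, where 26.8% and 5.28% of all tested miRNAs were lower. Mir99a, which shares a cluster with let-7c-1 and Mir125b-2, was the lowest of these at 45.2 RPM (33.4 to 61.4), beside 68.1 RPM in large intestine and a median of 575 RPM.

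An X-linked cluster supplied 3 of the 10 largest downward differences among miRNAs whose median elsewhere came to at least 10 reads at this depth. Mir351 had 51 reads and 56.3 RPM (42.8 to 74.0), below every other tissue by RPM, where it ranged from 153 RPM to 5774 RPM in muscle. Mir322, the rodent counterpart of human miR-424, had 62 reads and 68.4 RPM against 180 RPM in large intestine, the lowest other tissue, and 4369 RPM in heart. Mir542 had 21 reads and 23.2 RPM against 48.0 RPM in large intestine and 1089 RPM in muscle. With TMM the differences were -2.08, -1.90 and -1.93 on the log2 scale, so only Mir351 stayed past 4-fold.

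The remaining names of that group were Mir196b, Mir298, Mir499, Mir99a, Mir222, Mir144 and Mir411. Mir298 had 3 reads beside a median of 76.4 RPM elsewhere. Mir499, which lies in the cardiac myosin gene Myh7b, had 1 read and was at 1300 RPM in heart. Mir411, of the imprinted Dlk1-Dio3 cluster, had 65 reads and 71.7 RPM beside 8490 RPM in muscle.

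Lists of miRNAs known from other cell types show what else the pool held. Blood cell miRNAs come first. The 6 leukocyte miRNAs summed to 1725 RPM, against 1891 RPM in stomach and 78249 RPM in spleen. This sum was the lowest of 15 by RPM, but 10th with TMM and with DESeq2 size factors and 12th without Mir215. Most of that sum was Mir142, which marks blood cells generally, at 685 RPM (633 to 741), and Mir146a at 599 RPM. Mir150 of mature lymphocytes was 25.4 RPM and Mir223 of myeloid cells 26.5 RPM. By RPM 3 of the 6 were at least 4-fold lower than the other tissues, against 26.8% of all tested miRNAs, and with TMM 0 of 6 were. The erythroid pair Mir451 and Mir144 had 3 and 1 reads, or 4.41 RPM in sum, beside 13339 RPM in spleen.

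The 3 vascular miRNAs summed to 1982 RPM, again the lowest of 15 by RPM and 12th under each other scaling. Mir126, which lies in the endothelial gene Egfl7, was 1953 RPM beside a median of 13051 RPM. Mir221 and Mir222 were 16.6 and 12.1 RPM. All 3 were at least 4-fold lower by RPM, where 26.8% of all tested miRNAs were, but 0 of 3 were with TMM and 1 of 3 with DESeq2 size factors and without Mir215.

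The connective tissue miRNAs Mir199a2 and Mir214 were at 845 and 18.9 RPM, with a median difference of -0.43 by RPM that turned to 1.02 with TMM, 0.79 with DESeq2 size factors and 0.52 without Mir215. The smooth muscle pair Mir143 and Mir145 had a median of 0.54 by RPM and 2.66 with TMM, positive under every scaling.

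Markers of liver, brain and striated muscle were also counted. The hepatocyte miRNA Mir122 had 1 read. Mir124-1, Mir124-2 and Mir124-3 of neurons had 0 reads, Mir9-1 had 9 and Mir9-2 had 12. Mir206 and Mir208a of striated muscle had 0 reads, Mir1 had 1, Mir133b had 4 and Mir133a had 92, or 101.5 RPM beside 76578 RPM in muscle. The 7 listed striated muscle miRNAs summed to 109 RPM, 8th of 15, and the median difference of the 4 tested was 0.10 by RPM. Of these 4, 1 was at least 4-fold lower and 0 higher by RPM, while with TMM and with DESeq2 size factors 1 was lower and Mir133a and Mir133b were at least 4-fold higher. Over the 14 tested neuronal miRNAs, 2 were at least 4-fold lower by RPM, and 0 were higher. With TMM 0 were lower and 3 higher, and with DESeq2 size factors 0 and 2. The lower share cannot be set against the 26.8% of all tested miRNAs, because the 3 brain libraries alone could meet the read filter. Mir124-1, Mir124-2, Mir124-3 and Mir129-2 had 0 reads here and a median of 0 RPM in the other tissues, so they could not be lower. The neuronal list summed to 93.8 RPM, against 61407 RPM in brain.

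The mir-17-92 and mir-106b-25 clusters, active in dividing cells, summed to 3724 RPM, above large intestine at 2780 RPM and stomach at 2783 RPM and below thymus at 30319 RPM. Mir92a1, with 2365 reads, supplied most of that sum, and the order against large intestine and stomach rests on it. The mature list counted only 88 reads of miR-92a-3p and 18 of miR-92a-1-5p. The clusters' median difference from the other tissues was -0.52 by RPM. It turned to 1.01 with TMM, 0.80 with DESeq2 size factors and 0.48 without Mir215. The 4 metabolic miRNAs, Mir378b, Mir193, Mir365 and Mir455, had 2 to 14 reads each. Their median of -1.08 by RPM turned to 0.66 with TMM and 0.46 with DESeq2 size factors and stayed at -0.22 without Mir215. They do not include mir-378a, which the RefSeq list lacks. In the precursor list, whose total lacks Mir215, mir-378a had 5891 reads and 12574 RPM, 4th of 15 and 0.73 above the median on the log2 scale.

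Of the hairpins with both arms in the mature list, 47 had at least 100 reads in the small intestine. In 36 of them 1 arm held at least 95% of the reads, and the 5p arm was the major one in 31. Both counts include miR-3557, whose 5430 reads on the 5p arm are those of the antisense miR-378a. For none of the 47 (0) did the small intestine fall outside the range of the other tissues by more than 5 percentage points. Grouped by seed in the mature list, which lacks miR-215, miR-143-3p held 37.9% of reads, miR-192-5p 31.1% and the let-7 seed GAGGUAG 5.36%. The median over the other tissues for the let-7 seed was 18.0%.

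**Figure D5:**
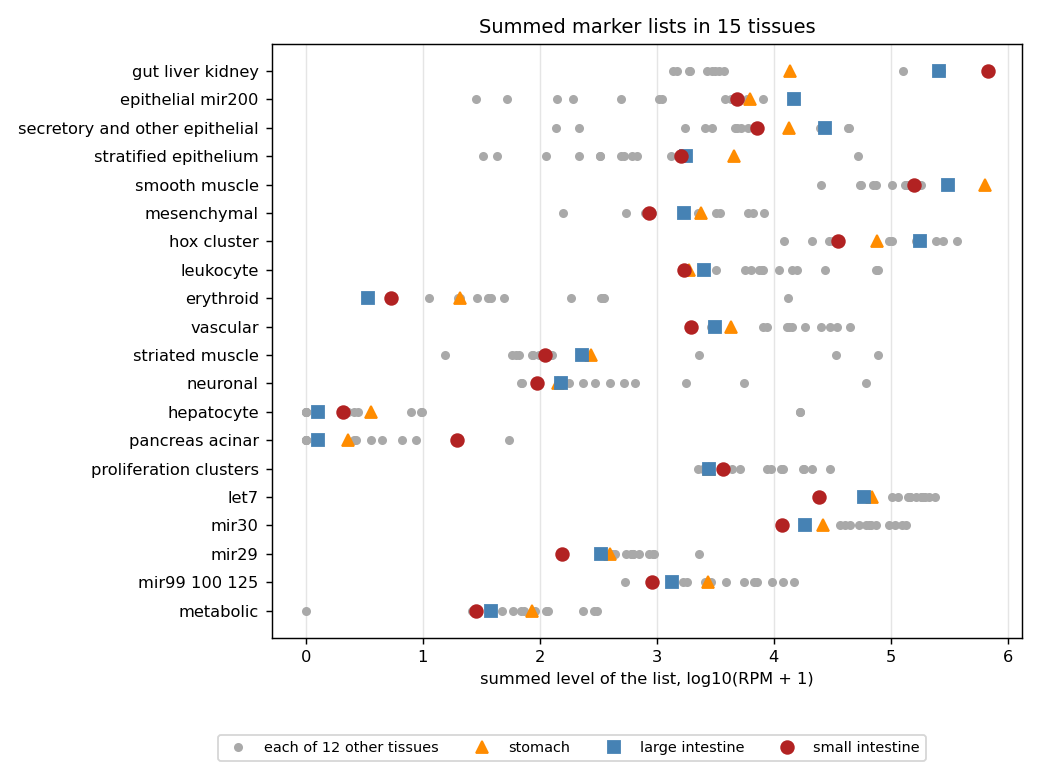
Summed level of each marker list as log10(RPM + 1) in 15 tissues, with the small intestine in red, large intestine as squares, stomach as triangles and each of the 12 other tissues in grey. The gut, liver and kidney list (Mir215, Mir192 and both Mir194 copies) sums to 684499 RPM, or 68.4% of reads, and lies to the right of every other tissue, while the leukocyte, vascular, let-7, mir-30 and mir-29 lists lie at the left by RPM.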

How the data were processed

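Per the labels and the study's methods, the authors made TruSeq Small RNA libraries and ran them on a MiSeq. Bases under phred 20 were trimmed, Bowtie placed the reads on Rn5, and Partek Flow and Strand NGS software was used. Versions are not given in the sources used here. The authors deposited estimated counts of reads per miRNA, mostly whole and not normalized, in 3 stacked lists (388 RefSeq, 444 miRBase precursor and 577 miRBase mature names, release 21). The RefSeq list was used, because Mir215 is missing from the others. It lacks mir-148a, mir-378a and let-7g, which had 8672, 5891 and 945 precursor reads in the small intestine. Reads were not separated by strand in the mature list: in every tissue library, reads of miR-378a were listed under the antisense miR-3557-5p.

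RPM was taken of each library's RefSeq total, estimates under 0.5 reads counted as 0, and brain was the mean of its 3 libraries. The difference was log2(RPM + 1) in the small intestine minus the median over 14 tissues, for miRNAs with at least 10 reads in at least 3 of 17 tissue libraries. At least 4-fold counted as higher or lower. The small intestine is 1 library, and no test was run. Wilson 95% intervals and 3-read floors cover counting error only. The named miRNAs were the markers Mir215, Mir192 and Mir143, the listed cell type miRNAs, the 10 most read, the 10 with the largest difference in each direction (at least 10 reads, or a median elsewhere worth 10 reads), and those highest of 15 and past 4-fold. The miRNAs that passed 4-fold under all 4 scalings or against large intestine were named after their values were seen. The small intestine and these lists were chosen with earlier results of these data known.

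Alternatives were 3 scalings, pseudocounts, filters, folds, other references, the miRBase lists, and each brain library left out. Sequences and neighbouring genes came from RefSeq tables of GRCr8, in which all 388 names were found, 368 with a mature and 354 with a hairpin sequence. The procedure was run on simulated counts scaled to the original totals, so the shift of RPM by a dominant miRNA was not covered. edgeR 4.0.16 and DESeq2 1.42.0 (R 4.3.3) gave scaling factors alone. All else used SciPy 1.17.1, NumPy 2.4.6, pandas 2.3.3 and Matplotlib 3.10.9 in Python 3.11.15.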

Additional observations from a re-analysis of the deposited data

Results flagged for a closer look

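The serum libraries, left out of the comparison, held Mir215 at 133676, 49095 and 74152 RPM (1117, 540 and 601 reads). In the tissues the level was 503409 RPM in the small intestine, 54326 RPM in large intestine and at most 2182 RPM elsewhere. They were picked out because this signal lies in libraries that the comparison does not use. Serum held 195, 210 and 103 reads of Mir192, so Mir215 exceeded Mir192 there, at 5.73, 2.57 and 5.84 reads for each Mir192 read. Mir194-1 had 0, 0 and 1 reads and Mir194-2 0, 2 and 0 reads. The serum libraries were shallow, with 8356, 10999 and 8105 RefSeq reads, so 3 reads came to 359, 273 and 370 RPM. No cause was tested.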

How the results depend on the processing

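Limits: each pool is 1 library of 3 rats, so no edgeR or DESeq2 test and no paired analysis was run, and Mir215's share of 50.3% shifts every other RPM. At 3.31 RPM per 3 reads, lower levels of rare miRNAs were not detectable at this depth. Main counts were 12 higher and 71 lower than the other tissues, 5 higher and 15 lower than large intestine, and 13 higher and 48 lower than stomach. The counts that moved by over 1.5 times are given in the same order, as higher and lower against the tissues, then against large intestine, then against stomach, and a single count says which it is. With TMM they were 40 and 14, 12 higher than large intestine, 33 and 30, with 9 above and 2 below every tissue. With DESeq2 size factors they were 37 and 17, 11 higher than large intestine, 33 and 30, with 9 above and 6 below every tissue. With the total without Mir215 they were 23 and 25, 14 and 7, 29 and 22, with 18 below every tissue. With a pseudocount of 0.1 RPM they were 21 higher than the tissues, 11 and 32, and 25 higher than stomach. With a pseudocount of 10 RPM they were 7 and 42, 3 and 7, 6 and 17. With a filter of 100 reads they were 3 higher than large intestine and 7 higher than stomach. With a fold of 2 they were 27 and 142, 22 and 88, 33 and 127. With a fold of 8 they were 7 and 16, 3 and 4, 7 and 13. With the miRBase precursor list they were 22 and 34, 14 and 8, 27 and 25, with 26 below every tissue. With the miRBase mature list they were 45 lower than the tissues, 10 higher than large intestine, 24 and 26 against stomach, with 2 above and 20 below every tissue. Without each brain replicate in turn there were 12 higher and 70 to 71 lower. Without the library labelled pancreas there were 11 higher and 81 lower. Of 44 named miRNAs past 4-fold by RPM, 43 kept their sign with TMM and 44 in each other setting that tested them all; 16 remained past 4-fold with TMM, 19 with DESeq2 size factors and 23 without Mir215. The exception was Mir30e, at 0.18 on the log2 scale with TMM. The scaling alternatives differ by construction in the total used; other causes were not tested.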
